A study of Mus musculus with 6 samples.

Results

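Enzymes that modify drugs, dietary compounds and steroids were followed across 6 expression arrays of mouse colon tumours. Members were taken by gene symbol from 6 families: the cytochromes P450 of families 1 to 4 (Cyp), the glutathione transferases (Gst), the sulfotransferases (Sult), the glucuronosyltransferases (Ugt), the carboxylesterases (Ces) and the retinaldehyde dehydrogenases (Aldh1a). Symbols of these forms were carried by 134 probe sets for 107 genes, where a probe set is the group of short array probes that reads 1 transcript. A probe set had to reach a log2 expression value of 4 on 3 or more of the 6 arrays, which left 48 probe sets for 40 of the 107 genes, among 10289 genes kept in all. Each gene is described by its brightest probe set. These genes comprise 12 Cyp, 2 Ugt, 5 Sult, 14 Gst, 5 Ces and 2 Aldh1a genes.

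The arrays hold total RNA from colon cancer tumours of 3 control mice, labelled wild type, and 3 mice carrying a human IL8 transgene, labelled IL8 transgenic. All animals were recorded as males of CBA/C57BL/6 strain, and the source label of both groups contains the word control, so groups were read from titles and genotype. The sources used here give neither the age of the mice, nor the origin of the tumours, nor the promoter of the transgene. Nothing states whether an array stands for 1 tumour or several, so the tests measure only the spread between these samples. IL8 is a human chemokine that attracts neutrophils. The series' title names the effect of this transgene on tumour gene expression as its question.

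These enzymes work in sequence. Cytochromes P450 and carboxylesterases oxidise or cleave a foreign compound, and transferases then attach glutathione, sulfate or glucuronic acid, which makes the product easier to export. The liver is their best known site, but the surface cells of the gut carry a set of their own and meet dietary and bacterial compounds first. Part of this set is switched on by ligand-activated receptors such as the aryl hydrocarbon receptor (AhR) and the pregnane X receptor (PXR), or by the oxidative stress factor NRF2.

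Several features of the arrays touch every value below. Xist, the RNA of the inactive X chromosome, was at 2.64 or less on the control arrays and at 12.27 or more on the transgenic arrays, and the Y-linked gene Eif2s3y was at 9.99 or more and at 2.71 or less. This goes against the male label of the transgenic samples on all 3 arrays, so genotype and the sex-linked pattern cannot be told apart, and 0 of the 40 genes lie on the X or Y chromosome. All 7 epithelial markers (among them Epcam and Cdh1) reached 4 on every array. Transgenic array 2 stood apart, with all 9 measured squamous epithelium markers at 4 or more (mean 9.96, against 3.47 to 4.12 on the other arrays). For Gapdh, whose 3′ and 5′ ends are read by separate control probe sets, the 3′ value exceeded the 5′ value by 0.71 on transgenic array 1 and by 0.87 to 0.96 on the others. The arrays also differed in markers of absorptive colonocytes, the mature surface cells of the colon. The mean level of 11 such markers was 10.07, 8.32 and 7.60 on control arrays 1 to 3 and 7.65, 9.17 and 10.52 on transgenic arrays 1 to 3. Not every marker followed this mean: Slc26a3 was at 3.02 to 10.80 over the arrays and lowest on transgenic array 1, whereas Slc9a3 had its lowest value on transgenic array 2, 4.10 against 11.36 or more elsewhere, and Car1 was highest on control array 2. In whole tumour tissue a larger share of cells of a type and more RNA per cell cannot be told apart.

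Upstream regions of 5 genes are shown first. Cyp3a13 and Sult1a1 had the 2 largest differences between groups, and the 3 Gstm genes are shown because they lie next to each other and were all lower in transgenic tumours. Each is the run of 250 bases before the outermost start listed by RefSeq for that gene, in build GRCm38.p6, written 5′ to 3′ on the gene's strand. Capitals mark the core of the NRF2 element (TGACNNNGC) and the core of the AhR element (GCGTG), searched on both strands, so that the AhR core appears as CACGC where it lies on the other strand.
Gstm5 (chr3:107895604-107895853, plus strand): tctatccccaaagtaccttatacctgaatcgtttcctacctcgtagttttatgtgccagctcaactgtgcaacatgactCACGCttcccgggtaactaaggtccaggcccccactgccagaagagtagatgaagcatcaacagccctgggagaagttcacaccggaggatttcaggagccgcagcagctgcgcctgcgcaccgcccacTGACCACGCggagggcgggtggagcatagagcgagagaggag
Gstm7 (chr3:107931818-107932067, minus strand): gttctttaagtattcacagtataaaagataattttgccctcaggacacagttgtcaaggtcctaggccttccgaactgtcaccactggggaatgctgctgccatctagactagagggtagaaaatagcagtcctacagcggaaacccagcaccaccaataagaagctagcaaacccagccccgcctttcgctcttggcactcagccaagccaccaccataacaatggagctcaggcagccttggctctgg
Gstm6 (chr3:107953467-107953716, minus strand): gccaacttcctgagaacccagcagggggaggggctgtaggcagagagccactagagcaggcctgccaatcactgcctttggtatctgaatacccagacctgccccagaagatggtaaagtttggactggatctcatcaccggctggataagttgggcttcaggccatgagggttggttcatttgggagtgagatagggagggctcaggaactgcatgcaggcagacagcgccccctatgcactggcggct
Cyp3a13 (chr5:137921620-137921869, minus strand): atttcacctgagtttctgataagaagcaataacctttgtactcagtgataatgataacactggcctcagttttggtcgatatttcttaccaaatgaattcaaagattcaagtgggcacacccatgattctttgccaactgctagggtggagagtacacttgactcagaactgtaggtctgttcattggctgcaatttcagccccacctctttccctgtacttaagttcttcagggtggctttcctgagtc
Sult1a1 (chr7:126676419-126676668, minus strand): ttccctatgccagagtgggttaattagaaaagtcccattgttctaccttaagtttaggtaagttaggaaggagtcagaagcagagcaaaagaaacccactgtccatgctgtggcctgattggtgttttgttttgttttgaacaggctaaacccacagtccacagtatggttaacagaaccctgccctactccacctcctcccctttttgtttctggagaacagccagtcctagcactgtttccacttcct

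Among these 5 windows, only that of Gstm5 held a match, with 2 AhR cores and 1 NRF2 core that begins 42 bases before the start and overlaps the second AhR core. A second listed start of Gstm7 had 1 NRF2 core in its own window. Over 44 windows found for 35 of the 40 genes, 11 windows (25%) held the AhR core, against 28.2% of all 32851 RefSeq windows of this length. The NRF2 core was in 4 of the 44 windows (9.09%), belonging to Cyp4f18, Gsta3, Gstm5 and Gstm7, and in 10.2% of all windows. A match describes these letters and is not a measured binding site.

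In the comparison of transgenic with control tumours, 0 of the 48 probe sets passed with limma at an adjusted p under 0.05, where 0.0570% of all 19310 probe sets did. At an unadjusted p under 0.05 there were 10 of the 48, against 5.50% of all probe sets, and they stood for 10 of the 40 genes (25%) against 5.82% of all genes. Of these 10 genes, 5 were higher (Cyp3a13, Cyp2s1, Sult1a1, Gsta4 and Gstt3) and 5 lower (Cyp4f18, Ugt2b35, Gstm5, Gstm6 and Gstm7) in transgenic tumours. The groups did not overlap for 9 of the 40 genes (22.5%), all of the 10 but Cyp2s1, against 11.5% of all genes. Of these 9, 4 were higher (4.77% of all genes) and 5 lower (6.75% of all genes). A difference of at least 1 on the log2 scale, a 2-fold change, was reached by 13 genes (32.5%), against 4.96% of all genes. Of these 13, 10 were higher (1.82% of all genes) and 3 lower (3.14% of all genes). Gstm6 passed the filter through the control arrays alone, so its lack of overlap followed from the filter and its difference was in part set by it. Without Gstm6, 8 of 39 genes had no overlap and 9 of 39 had an unadjusted p under 0.05.

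The 40 genes had a median difference of 0.28, with 28 higher and 12 lower, where all genes tested had a median of -0.025. Their spread within a group was wide. The median SD of a gene was 0.36 in control and 0.86 in transgenic tumours, against 0.19 and 0.30 over all genes tested. The 10 probe sets at an unadjusted p under 0.05 moved with the arrays used, as did the share of all probe sets. They became 5 (2.91% of all probe sets) if control array 3 was left out and 6 (3.81%) if transgenic array 2 was. They became 16 (6.93%) if transgenic array 1 was left out and 12 (12.0%) if transgenic array 3 was. The median difference moved to 0.081 when transgenic array 3 was left out and to 0.59 when transgenic array 1 was. The direction of the median stayed the same with each array left out.

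**Figure D1:**
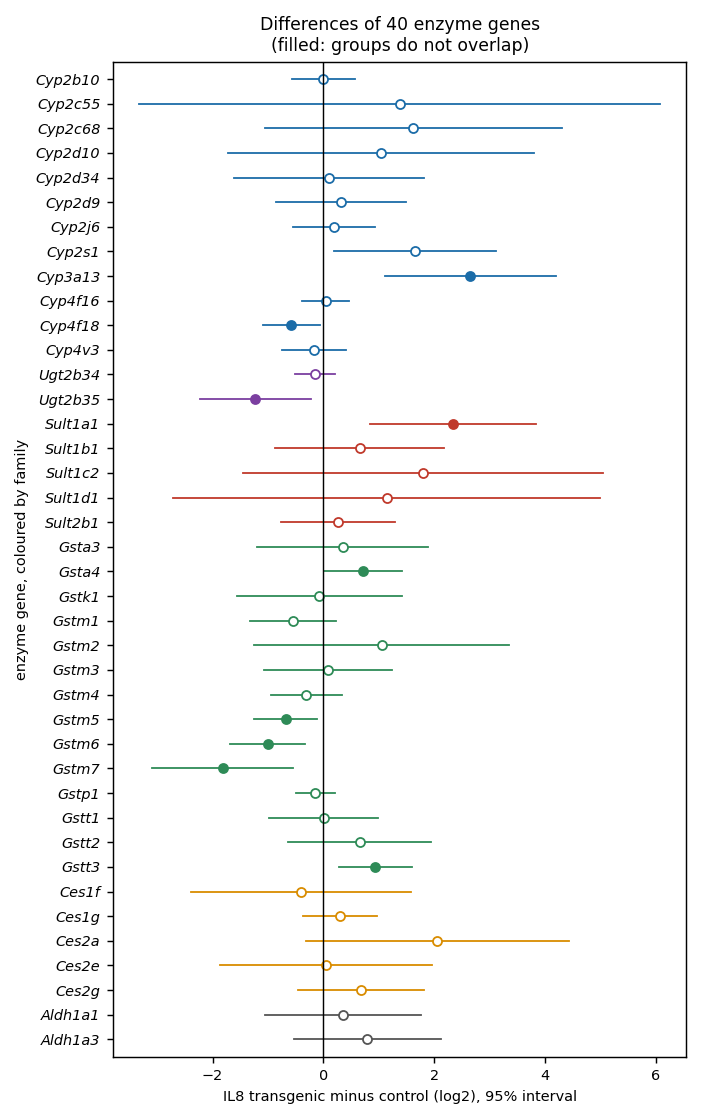
Differences of 40 enzyme genes between IL8 transgenic and control tumours (log2, horizontal axis), 3 arrays per group, with 95% intervals of the limma fit, coloured by family. Filled points are the 9 genes whose groups did not overlap, from Cyp3a13 at 2.65 to Gstm7 at -1.82.

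Cyp3a13, a cytochrome P450 of the family that PXR controls, had the largest difference of the 40 genes. It was at 6.04, 4.57 and 3.82 on control arrays 1 to 3 and at 6.82, 8.303 and 7.27 on transgenic arrays 1 to 3. Every transgenic value exceeded every control value, and the means differed by 2.65 ± 0.64 (SE, n = 3 per group), a 6.28-fold difference. It did not pass with limma (adjusted p 0.806), and with 1 array left out the difference ran from 2.16 to 3.27. Cyp2s1, an extrahepatic P450 of epithelia, was at 4.55, 3.64 and 3.10 in control and 4.34, 6.46 and 5.44 in transgenic tumours. The groups overlapped through transgenic array 1, and the difference was 1.65 ± 0.61 and 1.23 with values under 4 set to 4.

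3 further P450 genes differed by more than 1 without separating the groups. Cyp2c55, a P450 of the colon that acts on fatty acids, was at 7.88, 5.06 and 1.97 in control and 3.06, 7.06 and 8.94 in transgenic tumours. Each group spread over more than the difference of 1.38 ± 1.94, which turned to -0.12 without control array 3 and reached 3.03 without transgenic array 1. Cyp2c68, of the same subfamily, was at 5.57, 5.07 and 4.56 against 4.23, 8.89 and 6.96, and the means differed by 1.63 ± 1.11, or by 0.53 if transgenic array 2 is left out and 2.86 if transgenic array 1 is. Cyp2d10, of a subfamily that oxidises many drugs in the liver, was at 6.53, 5.47 and 5.30 against 4.07, 8.09 and 8.25, a difference of 1.04 ± 1.14 that ran from 0.31 without transgenic array 3 to 2.40 if transgenic array 1 was left out. In these 3 genes transgenic array 1 was the lowest or next to lowest of all arrays, while transgenic arrays 2 and 3 were high and control array 1 was the highest control.

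The remaining P450 genes differed by less than 1. Cyp4f18, a leukotriene oxidase of white blood cells, was at 5.06, 5.72 and 5.60 in control and 4.94, 4.96 and 4.74 in transgenic tumours. The groups did not overlap, with a difference of -0.58 ± 0.21 (limma adjusted p 0.806). Of 8 macrophage markers, 7 were lower in transgenic tumours, against 53.8% of all genes tested. Of these, 3 had no overlap, against 6.75% of all genes lower without overlap. The 8 markers had a mean level of 8.38, 8.75 and 8.92 on control arrays 1 to 3 and 7.83, 7.14 and 8.29 on transgenic arrays 1 to 3. The part of such cells in the Cyp4f18 value was not tested. Cyp2j6, an epoxygenase of the gut with the brightest P450 probe set, was at 7.90, 7.59 and 7.96 against 8.42, 8.25 and 7.35. The groups overlapped, and the 95% interval of the difference was -0.55 to 0.94. Cyp4f16, Cyp4v3, Cyp2b10, Cyp2d34 and Cyp2d9 differed by -0.16 to 0.31 at their brightest probe sets. Second kept probe sets differed by -0.66 for Cyp2b10 and by -0.17 for Cyp2j6.

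**Figure D2:**
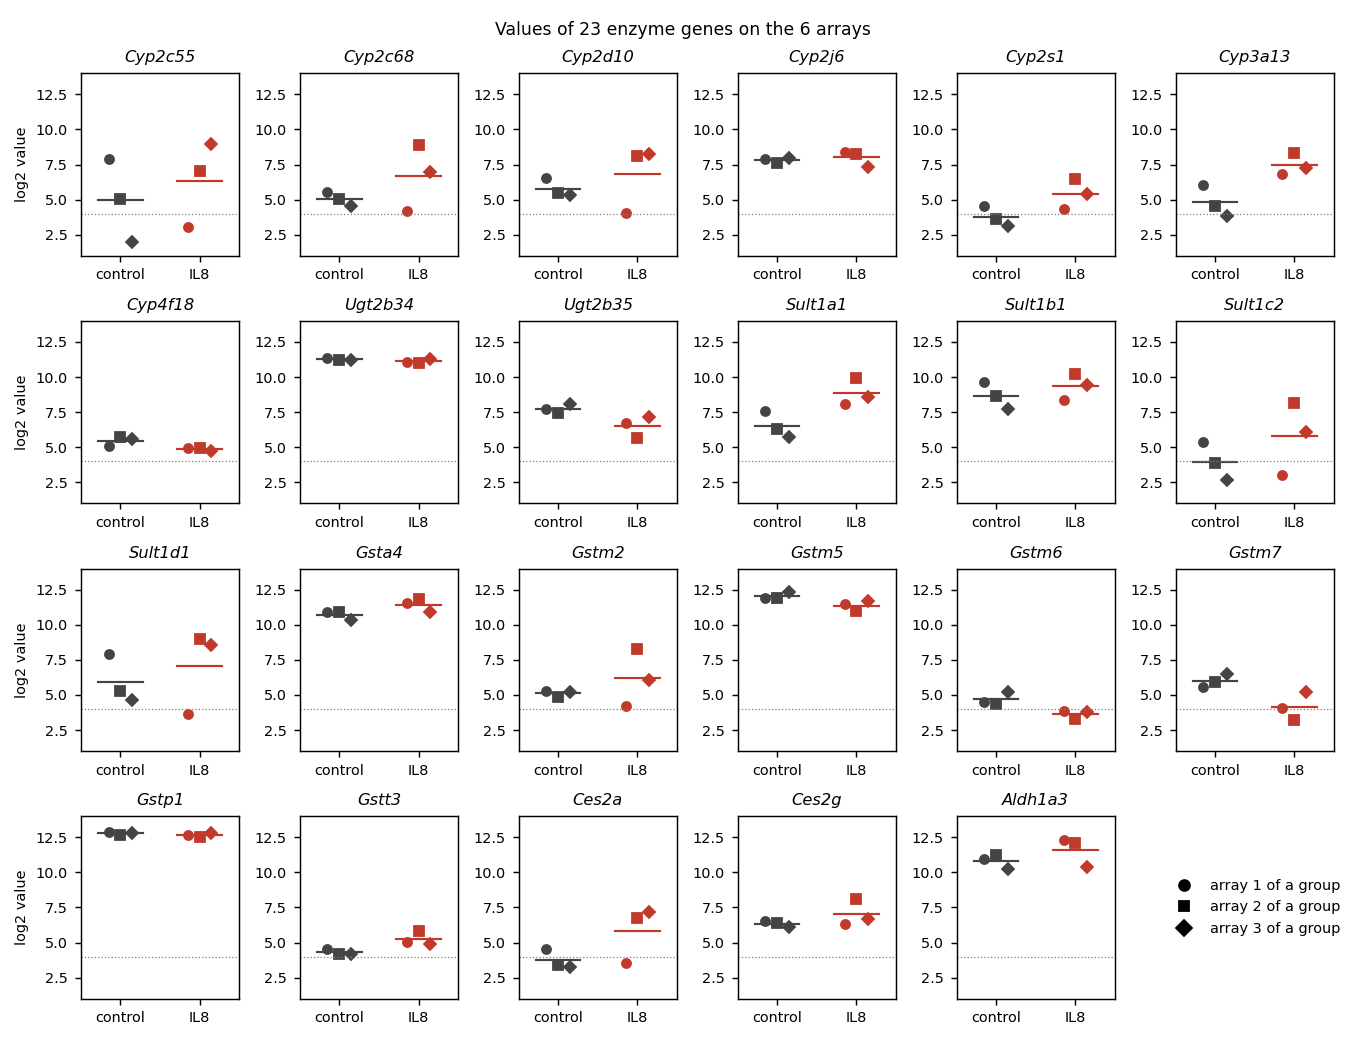
Log2 values (vertical axis) of 23 enzyme genes in 3 control (grey) and 3 IL8 transgenic (red) tumours, with the mean as a bar, the array number by marker shape and a dotted line at 4. Sult1a1 runs from 5.73 to 7.56 in control and from 8.101 to 9.90 in transgenic tumours, while Sult1d1 spans 3.66 to 9.01 within the transgenic group.

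All 5 sulfotransferase genes had a higher mean in transgenic tumours, as did 46.2% of all genes tested. Their median difference was 1.14, and 0 of them passed with limma. At an unadjusted p under 0.05 there was 1 of the 5, against 5.82% of all genes. Sult1a1, which sulfates phenols and phenolic drugs, was at 7.56, 6.29 and 5.73 on the control arrays and 8.101, 9.90 and 8.61 on the transgenic arrays. The groups did not overlap, and the difference was 2.34 ± 0.62, or 5.08-fold (adjusted p 0.806). With 1 array left out it ran from 1.83 to 2.86, the lowest without transgenic array 2.

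The other sulfotransferases overlapped between groups. Sult1d1, which acts on catechols, was at 7.92, 5.28 and 4.62 in control and 3.66, 9.01 and 8.57 in transgenic tumours. The lowest array of all was thus a transgenic one, and the difference of 1.14 ± 1.59 moved to 0.18 if transgenic array 2 was left out and to 2.85 if transgenic array 1 was. A second kept probe set of Sult1d1 differed by 1.52. Sult1c2 was at 5.35, 3.92 and 2.65 against 3.06, 8.16 and 6.09, and differed by 1.80 ± 1.34, or 0.60 if transgenic array 2 was left out and 3.15 if transgenic array 1 was. Sult1b1, the direct neighbour of Sult1d1 in the annotation and the brightest of the family, was at 9.65, 8.64 and 7.75 against 8.36, 10.24 and 9.42, with a 95% interval of -0.86 to 2.19 and a difference of 0.66 that was 0.20 without control array 3. The cholesterol sulfotransferase gene Sult2b1 differed by 0.27. Transgenic array 2 was the highest and transgenic array 1 the lowest transgenic array in all 5 genes, and the median of the family was 0.21 without the former and 2.73 without the latter.

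The mean deviation of the 5 Sult genes from their control means was 1.04, -0.24 and -0.80 on control arrays 1 to 3 and -0.50, 2.66 and 1.57 on transgenic arrays 1 to 3. For the 12 Cyp genes it was 0.60, -0.05 and -0.55 and then -0.26, 1.24 and 1.09, and for the 5 Ces genes 0.79, -0.27 and -0.52 and then -0.40, 0.72 and 1.30. In all 3 families control array 1 and transgenic arrays 2 and 3 were above the control mean and the other arrays below it. Control array 1 was the highest control for 23 of the 40 genes (57.5%), against 26.9% of all genes tested, and transgenic array 1 the lowest transgenic array for 24 (60%), against 38.7%. Cyp2d9, Sult1c2, Ces2a and Gstm3 reached 4 only on control array 1 and transgenic arrays 2 and 3. Their place in these counts therefore followed from the filter. The 11 absorptive colonocyte markers deviated by 1.41, -0.34 and -1.06 on the control and -1.02, 0.50 and 1.85 on the transgenic arrays, and 8 goblet cell markers by 0.83, -0.54 and -0.29 and by -1.36, 1.26 and 1.22. Smooth muscle markers deviated by 0.52, -0.13 and -0.39 on the control and by -0.86, 3.29 and 2.17 on the transgenic arrays. The part of these markers in the enzyme values was not tested.

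**Figure D3:**
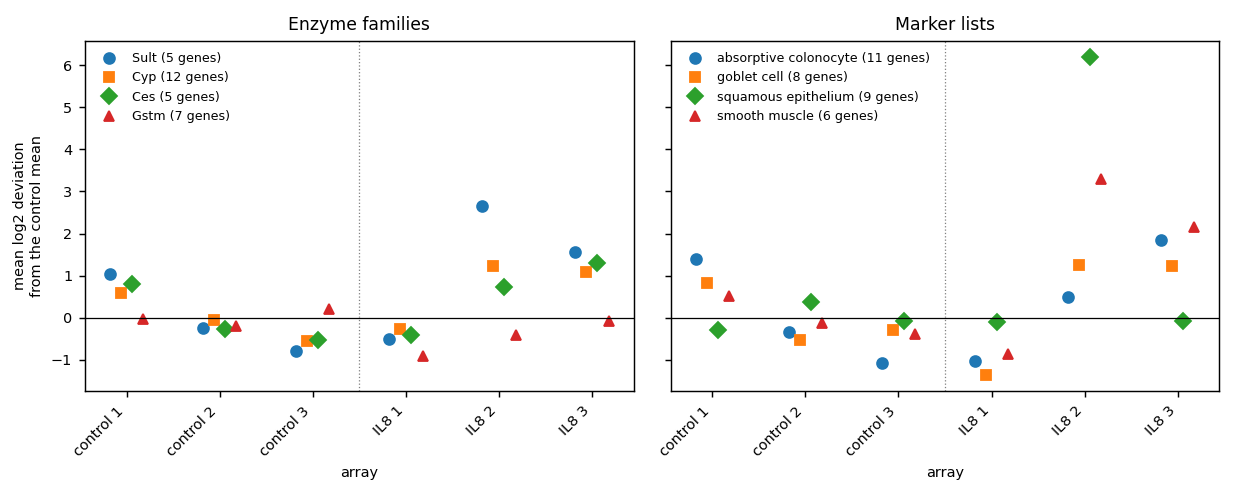
Mean log2 deviation from the control mean (vertical axis) on each of the 6 arrays, for 4 groups of enzyme genes (left) and 4 marker lists (right). Sult genes lie at 1.04 on control 1 and at -0.50 on IL8 1, colonocyte markers at 1.41 and -1.02, and squamous markers reach 6.20 on IL8 2 alone.

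Carboxylesterases, which cleave ester drugs and fats, were also uneven between arrays of 1 group. Ces2a was at 4.56, 3.44 and 3.28 in control and 3.53, 6.76 and 7.16 in transgenic tumours. Transgenic arrays 2 and 3 lay above every control array while transgenic array 1 lay among them. The difference was 2.06 ± 0.98, and it ran from 1.39 without transgenic array 3 to 3.20 if transgenic array 1 was left out. Ces2g, the brightest of the family, was at 6.56, 6.40 and 6.08 against 6.29, 8.104 and 6.68, with means 0.68 ± 0.47 apart, and 0.14 apart if transgenic array 2, the array with the squamous markers, is left out and 1.05 if transgenic array 1 is. Ces2e, Ces1g and Ces1f differed by 0.049, 0.30 and -0.40.

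Hepatocyte markers were read because the liver is rich in such enzymes. Of 7 measured, 5 lay under 4 on every array, among them Apoa1 (highest value 2.72), Fgb (3.10), Ahsg (2.66) and Serpina1c (1.32). Alb was at 8.26 to 11.09 on 5 arrays and at 2.97 on transgenic array 2, and Ttr at 10.86 or more on all 6. Some P450 genes that are abundant in liver were also low: Cyp2e1 reached 2.73 at most, Cyp3a11 1.82 and Cyp1a2 1.67. Within the Cyp2d subfamily, Cyp2d10 reached 8.25 and Cyp2d34 6.54, whereas Cyp2d26 stayed at or under 3.95.

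Glutathione transferases went both ways, 7 higher and 7 lower, with a median of -0.035 that ran from -0.18 to 0.16 with 1 array left out. The 7 mu class genes, Gstm, follow each other without another protein-coding gene between them, in the order Gstm5, Gstm7, Gstm6, Gstm3, Gstm2, Gstm1 and Gstm4. The 3 at the Gstm5 end had a lower level on every transgenic than on every control array, and in the other 4 the groups overlapped. Of the 3, Gstm6 passed the filter through the control arrays alone, so its lack of overlap followed from the filter. Whether the 3 differ from the other 4 was not tested.

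Gstm5, the brightest Gstm gene, was at 11.93, 11.89 and 12.31 in control and 11.48, 10.95 and 11.66 in transgenic tumours. Its difference of -0.68 ± 0.24 was small but the groups did not overlap. Gstm7 was at 5.57, 5.89 and 6.48 against 4.05, 3.22 and 5.22, and differed by -1.82 ± 0.52, the lowest difference of the 40 genes. With 1 array left out Gstm7 ran from -2.35 to -1.35, and with values under 4 set to 4 it differed by -1.56. Gstm6 was at 4.51, 4.33 and 5.19 in control tumours and at 3.88, 3.31 and 3.81 in transgenic tumours, under 4 on each of the latter, so that it was at least 1.60-fold lower. None of the 3 passed with limma (adjusted p 0.806 for each).

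In their neighbours the groups overlapped, and Gstm1 and Gstm4 were lower as well. Gstm2 was at 5.31, 4.87 and 5.20 in control and 4.21, 8.27 and 6.05 in transgenic tumours. Transgenic array 2 lay far above the other arrays, and the difference of 1.05 ± 0.95 was 0.0032 without it and 2.04 if transgenic array 1 was left out. Gstm3, Gstm1 and Gstm4 differed by 0.085, -0.55 and -0.31, and a second probe set of Gstm1 by -0.35. Genes of this class are closely related in sequence, and the probe set of Gstm3 carries a name ending in s_at, which the array maker gives to probe sets that can match several transcripts, so signal may be shared between them. Fibroblast markers had a mean level of 10.03 to 10.14 in control and of 8.64, 10.09 and 9.62 in transgenic tumours, and their part in the Gstm values was not tested.

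**Figure D4:**
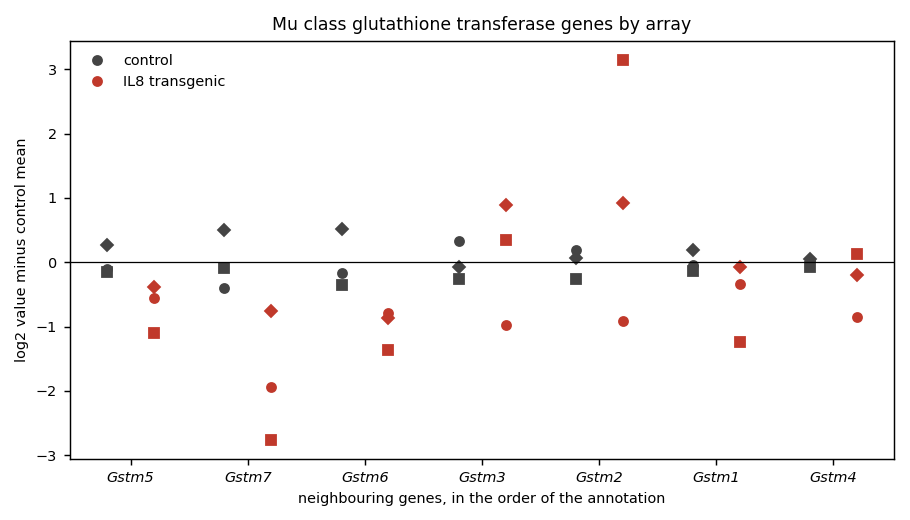
Log2 value minus the control mean (vertical axis) of 7 neighbouring Gstm genes in annotation order, with 3 control (grey) and 3 IL8 transgenic (red) arrays and marker shapes for arrays 1 to 3 of a group. For Gstm5, Gstm7 and Gstm6 all red points lie below all grey points, and Gstm2 on transgenic array 2 lies highest.

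Gsta4, which detoxifies the lipid peroxidation product hydroxynonenal, was at 10.91, 10.91 and 10.33 in control and 11.56, 11.82 and 10.92 in transgenic tumours. The groups were separated by a narrow gap between 10.91 and 10.92, with a difference of 0.72 ± 0.29. Gstt3 was at 4.55, 4.21 and 4.17 against 5.04, 5.80 and 4.90, without overlap, and differed by 0.94 ± 0.27. Its neighbour Gstt1 differed by 0.0033 with a 95% interval of -0.98 to 0.99. Gstp1, the pi class enzyme that is abundant in many tumours, had the brightest probe set of the family, at 12.88, 12.69 and 12.79 against 12.63, 12.52 and 12.77. The interval of its difference was narrow, -0.50 to 0.21. Gsta3, Gstk1 and Gstt2 differed by 0.35, -0.073 and 0.66, and Gsta3 reached 11.65 on transgenic array 1.

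Of 8 glucuronosyltransferase genes on the array 2 passed the filter, both of the Ugt2b group, and 0 probe sets carried a single symbol of the Ugt1 group. Ugt2b34 was at 11.39, 11.23 and 11.24 in control and 11.09, 11.01 and 11.31 in transgenic tumours. The groups overlapped. Ugt2b35, from the same gene cluster, was at 7.71, 7.42 and 8.099 against 6.70, 5.66 and 7.19. All transgenic arrays lay below all control arrays, by 1.23 ± 0.41, and the difference was -0.80 without transgenic array 2 (adjusted p 0.806 with all arrays).

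Retinaldehyde dehydrogenases make retinoic acid from vitamin A aldehyde. Aldh1a3 was at 10.98, 11.23 and 10.26 in control and 12.32, 12.10 and 10.42 in transgenic tumours. Transgenic arrays 1 and 2 lay above all controls and transgenic array 3 below 2 of them. The difference was 0.79 ± 0.55, and 1.16 and 1.57 at its 2 other kept probe sets. Leaving out transgenic array 1 gave 0.43, leaving out transgenic array 3 gave 1.39, and weighting the arrays by quality gave -0.0033. Aldh1a1 differed by 0.36 and was at 4.27 ± 0.22 (SD, n = 3) in control tumours, close to the filter. Of 15 genes of the retinoid pathway around them on the array, 6 passed the filter, with 2 higher and 4 lower. The retinoic acid receptor gene Rarb was at 6.31, 8.53 and 8.53 against 6.40, 2.69 and 7.73, and Stra6, which encodes a retinol uptake receptor, reached only 3.20 on transgenic array 2, against 6.20 or more elsewhere. Rbp4 and Adh1, for retinol binding protein and alcohol dehydrogenase, differed by 1.07 and 0.94. No gene of this list passed with limma, and 0 had an unadjusted p under 0.05.

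**Figure D5:**
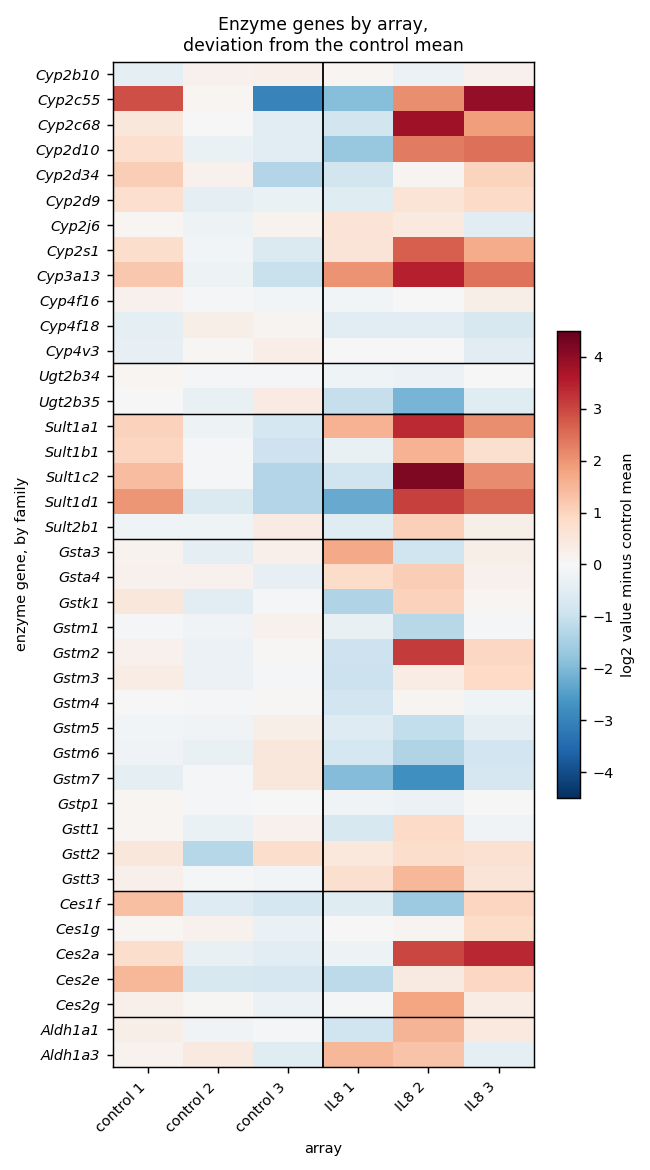
Deviation of each of 40 enzyme genes (rows, by family) from its control mean on each of the 6 arrays (columns), on a log2 colour scale from blue (lower) to red (higher). Most Sult and several Cyp and Ces genes are red on control 1, IL8 2 and IL8 3, and Gstm5, Gstm6, Gstm7 and Ugt2b35 are blue on all 3 IL8 arrays.

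Partner genes were taken from lists of the surrounding pathway, and 0 genes of any of these lists passed with limma at an adjusted p under 0.05. Over all genes tested, 46.2% were higher in transgenic tumours and 5.82% had an unadjusted p under 0.05. Of 15 receptors and regulators on the array, 12 passed the filter. Of these 12, 9 were higher and 3 lower, with a median of 0.17 and 0 at an unadjusted p under 0.05. Among them the nuclear receptor genes Pparg and Nr1h4 differed by 0.65 and 0.95, Rxrb by 0.20 and Nfe2l2, which encodes NRF2, by -0.22. Of 6 genes for electron supply and haem, 4 were lower. The groups did not overlap for 3 of the 6, 2 lower and 1 higher, against 11.5% of all genes. The cytochrome b5 genes Cyb5a and Cyb5b differed by -0.22 and -0.29 without overlap between groups, and the haem oxygenase gene Hmox1 by -1.31. Alas1, the first enzyme of haem synthesis, was at 9.86, 9.77 and 9.36 against 9.94, 9.91 and 9.97, higher without overlap.

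Of 22 genes for other oxidation, reduction and hydrolysis steps on the array, 14 passed the filter, and 10 of these were higher. Cbr3, a carbonyl reductase, was at 8.01, 6.58 and 7.06 in control and 9.04, 9.12 and 8.14 in transgenic tumours. The groups did not overlap, and the difference was 1.55 ± 0.44 (adjusted p 0.806). The epoxide hydrolase gene Ephx1 differed by -0.94, Aldh2 by -0.36 and the quinone reductase gene Nqo1 by 0.56. Of 16 genes for other conjugation steps and cofactors, 12 were higher. An unadjusted p under 0.05 was found for 1 of the 16, Gstz1 at -0.68, where 5.82% of all genes had one. Papss1, which makes the sulfate donor used by the sulfotransferases, was at 10.31, 10.31 and 10.13 against 10.35, 11.25 and 10.40, without overlap but with transgenic array 2 far above the others. Gsto1 and Mgst3 differed by 0.36 and 0.35.

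Of 12 drug transporters, 7 were higher and 5 lower, and 2 had an unadjusted p under 0.05, against 5.82% of all genes. These were Slco3a1, an anion uptake transporter, at -0.58 ± 0.15 and the carnitine transporter gene Slc22a5 at 0.44 ± 0.17. Slco3a1 was close to the filter, at 4.72, 4.74 and 4.53 in control and 3.91, 4.19 and 4.13 in transgenic tumours. The export pump gene Abcc2 was at 9.48, 9.39 and 9.69 in control and 8.82, 3.05 and 9.56 in transgenic tumours. It was near background on transgenic array 2, the array with squamous markers. Abcb1b, another pump gene, reached 7.22 on transgenic array 1 and no more than 4.81 elsewhere.

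Targets of the receptors that induce these enzymes were counted next. Of 7 AhR targets on the array 2 passed the filter. Tiparp, a feedback inhibitor of AhR, was at 7.70, 7.47 and 7.57 in control and 8.54, 8.23 and 7.89 in transgenic tumours. The groups did not overlap (0.64 ± 0.20, adjusted p 0.806), whereas the best known AhR targets Cyp1a1 and Cyp1b1 stayed at or under 2.54 and 3.38 on every array. Of 11 NRF2 targets, 6 were higher and 5 lower with a median of 0.080. Of 6 PXR and CAR targets, 5 were higher with a median of 0.94. Cyp3a13, Ces2a and Cyp2c55 were higher as above, and Abcb1a by 0.50, while Abcc2 was lower. Cyp2b10 differed by 0.0020 at its brightest probe set and by -0.66 at its second kept one. Cyp3a11 did not pass the filter, with 1.82 at most. Cyp3a13, Ces2a, Cyp2c55 and Cyp2b10 are themselves among the enzyme genes followed here.

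Since the Xist pattern splits the groups, liver enzymes known to differ between the sexes of mice were read as well. Of those higher in females, 5 were on the array and 0 passed the filter, Cyp3a44 with 3.67 having the highest value of any array. Of those higher in males, 3 were kept, and Gstp1, Cyp2d9 and Cyp7b1 differed by -0.14, 0.31 and 0.32. Sex and genotype cannot be told apart in any of these values.

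The other 67 of the 107 genes did not pass the filter, and 57 of them stayed under 4 on every array. This held for 38 of 42 Cyp genes, all 6 Ugt and all 8 Sult genes not kept. At the edge of the filter, the array of rank 3 was at 4.05 for Cyp2d9 and 4.19 for Gstm3, just inside, and at 3.95 for Gstp3 and 3.89 for Ces1d, just outside. 10 genes reached 4 on 1 or 2 arrays. Cyp2f2, a P450 best known from the airway, was at 9.74 on transgenic array 2, while the array of rank 3 was at 2.46. Aldh1a7 and Gstp3 were also highest on that array, at 7.55 and 6.47, against at most 3.67 and 3.95 on a control array. Both reached 4 on 2 arrays, so each was at 4 or more on a second transgenic array as well. The squamous markers Krtdap and Trp63 were at 12.31 and 8.97 on transgenic array 2 and at 2.62 or less and 2.29 or less on the others. The part of squamous cells in the values of these 3 genes was not tested.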

How the data were processed

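The deposited values are log2 expression values per probe set that the authors made with GCRMA, a background correction and summary method, per the submitters' processing notes. The sources used here give no version of it, and the log2 scale was read from the values. They were used as deposited, with array medians of 3.31 to 3.36. Gene names came from the platform annotation, with probe sets of several symbols left out, which removed 8 probe sets with a matching symbol. All 40 genes were found in the RefSeq table of GRCm38.p6, used for the order of protein-coding genes and for promoter sequence. A linear model of group, with no covariate, was fitted to all 6 arrays by limma 3.58.1 (lmFit, then eBayes) under R 4.3.3, with Benjamini-Hochberg adjustment over 19310 probe sets and 64 AFFX controls left out. Errors of differences are standard errors (SE) of that fit. At 3 arrays per group, their number limits the precision. The procedure was tested on simulated data.

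The members and lists were chosen with earlier results of these data known. Values on every array are given for the brightest gene of each family and for genes with an unadjusted p under 0.05 or a difference of at least 1. From partner lists, at most 4 genes with the smallest p are named. Genes of the lists of markers, of background liver P450 and of genes not kept were named after their values were seen. The alternatives were other filters, normalizations, variance priors and weights, a replicate block, a floor at 4, other probe set summaries, an adjusted p under 0.1 and leaving out each array.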

Additional observations from a re-analysis of the deposited data

How the results depend on the processing

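Of 16 alternatives, every one that counts probe sets left 0 member probe sets passing with limma. Averaging the probe sets of a gene gives no such count. The 10 probe sets at an unadjusted p under 0.05 became 5 with the filter at 6, where 25 member probe sets were left and 5.17% of all probe sets were called, and ran from 5 to 16 with 1 array left out, where 2.20% to 12.0% of all were. The 9 genes without overlap became 5 with that filter, where 20 genes were left and 11.2% of all genes had no overlap, and ran from 9 to 19 with 1 array left out. They were 9 of 40 without control array 3, where the share of all genes was 20.2%, close to that of the members. The count was 19 without transgenic array 1, where the share of all genes without overlap was 25.7%, and 14 without transgenic array 3, where it was 31.1%. The median difference kept its sign and ran from 0.081 to 0.59 with 1 array left out. With array quality weights the Cyp2j6 and Aldh1a3 differences turned to -0.088 and -0.0033, and the cause was not tested. With 1 array left out Cyp2c55 ran from -0.12 to 3.03 and Cyp2j6 from -0.016 to 0.52.

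Same-numbered arrays of the groups had deviations that correlated at -0.27, -0.28 and -0.051, so the numbers were not taken as pairs. The replicate block left 10 probe sets at an unadjusted p under 0.05, 0 at an adjusted p under 0.05 and the median at 0.28, and it changed no call. As for low signal, 16 of the 40 genes lay under 4 on at least 1 array.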
